A study of Mus musculus with 4 samples.

Results

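The nuclear genes of the oxidative phosphorylation system were followed through a map of RNA crosslinked to the RNA-binding protein MSI2 in mouse intestinal epithelium. Members were taken by symbol alone, with no measured value: protein-coding nuclear genes whose symbols begin with Ndufa, Ndufb, Ndufc, Ndufs or Ndufv (complex I), Uqcr (complex III), Cox4 to Cox8 (complex IV) or Atp5 (complex V), and the Sdh genes of complex II. This gave 96 of the 21887 nuclear protein-coding genes placed on the mouse assembly mm10 (GRCm38): 49 for complex I, 4 for complex II, 8 for complex III, 18 for complex IV and 17 for complex V. The rule also takes in 8 Ndufaf genes, which encode assembly factors of complex I and not subunits, and it leaves out Cyc1, a subunit of complex III.

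The inner mitochondrial membrane carries 4 respiratory complexes, which pass electrons from NADH and succinate to oxygen while all but complex II pump protons, and ATP synthase, which uses the proton gradient to make ATP. Most of their subunits are encoded in the nucleus, translated in the cytoplasm and imported, while a small hydrophobic core is encoded by the mitochondrial genome. Musashi proteins such as MSI2 bind messenger RNAs and act on their translation and stability. In the intestine, oxidative metabolism is known to be high in absorptive cells of the villus and also matters in crypt stem cells.

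CLIP-seq was used, in which ultraviolet light joins protein to RNA, an antibody to MSI2 pulls the protein down and the attached RNA is sequenced. The 4 libraries were 2 of wild type mice (WT) and 2 of TRE-Msi2 mice, which carry an Msi2 transgene switched on by doxycycline; all were of C57BL6 background, and the labels give no age and no driver of the transgene. Per the labels' protocols, whole intestinal epithelium was taken from TRE-Msi2 mice given doxycycline for 24 hours, whereas crypts were taken from WT mice, so genotype, doxycycline and tissue fraction cannot be told apart. The authors deposited 1 list of peaks per genotype, named as merged, so replicate error is unknown for every value, no difference between genotypes could be tested, and intervals cover counting error only.

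Each peak is a run of 200-nt bins on 1 strand, with a score of the authors' own. In single bins it behaves as reads per bin and was whole in 99.1% of WT and 96.7% of TRE-Msi2 cases. How joined bins were scored is unknown. Ranks, medians and percentiles of scores take joined peaks and single bins together. Those that rest on joined peaks are of the listed scores only. The 400-nt WT peak of Sdha scored 45.67, which is not a mean of whole-number counts of its bins. That of Cox8a scored 12.67, below any single bin of the list. The WT list held 12061 peaks with a median score of 19, and the TRE-Msi2 list 16939 with a median of 24.7 and single-bin peaks began at 15 and 20 reads. Library depth is unknown, and RNA abundance was not measured, so binding and transcript level cannot be told apart. Of 8 epithelial marker genes 7 held a WT peak and 8 a TRE-Msi2 peak. None of 7 immune, 8 stromal and endothelial, 4 smooth muscle and 4 striated muscle markers held one in either list, although the upper 95% Clopper-Pearson limits for these counts of 0 are 41.0%, 36.9%, 60.2% and 60.2%.

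Transcripts of all 5 complexes were found among the MSI2-bound RNAs. At least 1 base of a WT peak fell in the span of 43 of the 96 genes (44.8%, 95% Clopper-Pearson interval 34.6% to 55.3%), where 20.3% of all nuclear protein-coding genes held one. In the TRE-Msi2 list 54 of 96 did (56.2%, interval 45.8% to 66.4%), against 24.8% of all genes. The same 42 genes held peaks in both lists (43.8%, against 19.1% of all genes), 12 held a TRE-Msi2 peak alone, 1 held a WT peak alone and 41 held none. Of the members with a TRE-Msi2 peak 22.2% had no WT peak, close to the 23.2% of all genes with a TRE-Msi2 peak.

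Oxidative phosphorylation genes are short, with a median span of 7.23 kb against 17.2 kb over all genes, and short genes held peaks less often. The members' share was above that of all genes in each class of span, but in spans of 20 kb and over the members' intervals, 23.0% to 77.0% in WT and 28.9% to 82.3% in TRE-Msi2, hold the share of all genes. In spans under 5 kb, 9 of 31 members (29.0%) held a WT peak and 7.07% of all genes did. From 5 to 10 kb it was 18 of 36 (50.0%) against 15.3%, from 10 to 20 kb 9 of 15 (60%) against 19.6%, and at 20 kb and over 7 of 14 (50.0%) against 28.6%. In the TRE-Msi2 list the members' shares in these classes were 45.2%, 61.1%, 66.7% and 57.1%, against 9.63%, 19.5%, 25% and 33.9%. How much of this follows RNA abundance was not tested.

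The complexes differed in how many of their genes held a peak. Complex I, the NADH dehydrogenase, had the lowest share, with 13 of 49 in WT (26.5%, interval 15% to 41.1%) and 21 of 49 in TRE-Msi2 (42.9%, 28.8% to 57.8%). Complex II had the highest, with 4 of 4 in both lists (interval 39.8% to 100%). Complex III gave 5 of 8 in WT (62.5%, 24.5% to 91.5%) and 6 of 8 in TRE-Msi2 (75%, 34.9% to 96.8%). Complex IV gave 10 of 18 in each list (55.6%, 30.8% to 78.5%). Complex V gave 11 of 17 in WT (64.7%, 38.3% to 85.8%) and 13 of 17 in TRE-Msi2 (76.5%, 50.1% to 93.2%). The intervals of all 5 complexes overlap within each list, and the difference between complexes was not tested. The WT interval of complex I also holds the 20.3% of all genes.

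**Figure D1:**
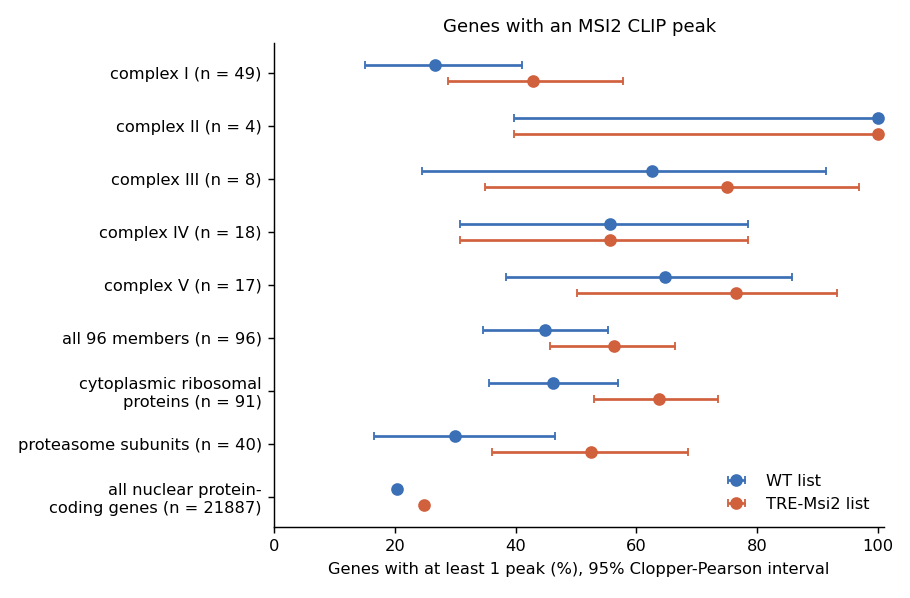
Share of genes with at least 1 peak (x axis, percent) for each complex, all 96 members, cytoplasmic ribosomal proteins, proteasome subunits and all nuclear protein-coding genes; points are the share in the WT (blue) and TRE-Msi2 (red) list and bars the 95% Clopper-Pearson interval. Complex I sits lowest of the complexes (26.5% and 42.9%) and every complex lies above the share of all genes (20.3% and 24.8%). The WT interval of complex I, 15% to 41.1%, holds the share of all genes.

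Median top scores were close to each other in WT. The highest score per gene was taken among genes with a WT peak, over joined and single bins. Its median was 26 for complex I, 29 for II, 25 for III, 24.8 for IV and 23 for V. Over the 43 members it was 25.5, against 21 for all genes with a WT peak. In the TRE-Msi2 list the medians were 33, 31.1, 41.2, 44 and 33 for complexes I to V, 34 over the 54 members and 28 over all genes with a peak. Levels of the 2 lists are not on a common scale.

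**Figure D2:**
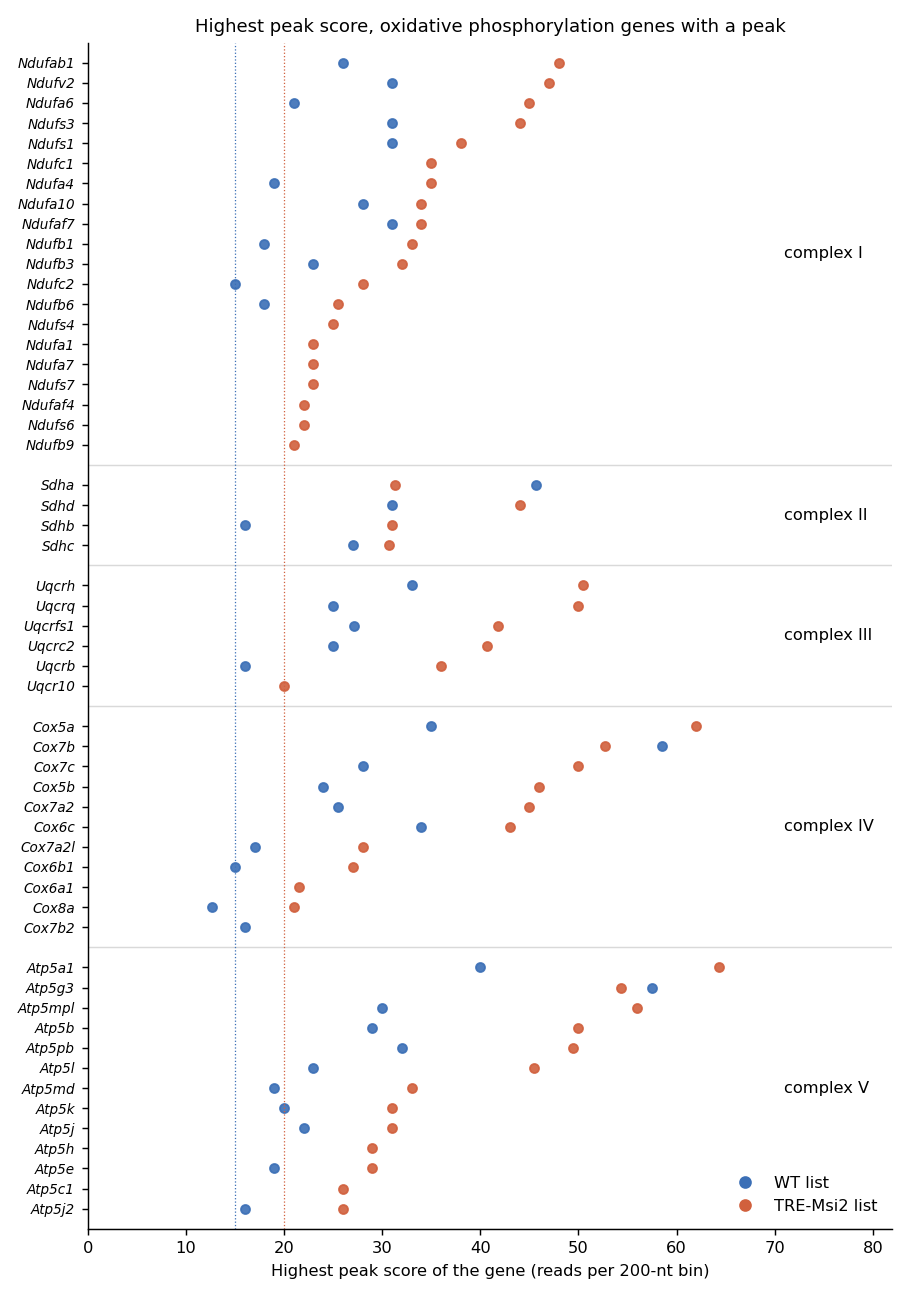
Highest peak score of members with a peak, 1 of them left out (x axis, reads per 200-nt bin), by complex, in the WT (blue) and TRE-Msi2 (red) list; dotted lines mark the lowest single-bin score of each list, 15 and 20. Atp5a1 (64.3) and Cox5a (62) have the highest TRE-Msi2 scores and Cox7b (58.5) and Atp5g3 (57.5) the highest WT scores. The peaks of Atp5a1, Cox7b and Atp5g3 are joined bins, whose scoring is unknown, and that of Cox5a is a single bin. The unit of the axis holds for single bins.

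In complex I the catalytic core had the larger share of genes with peaks. Of the 7 nuclear core subunits, which hold the flavin and the iron-sulphur clusters, 4 held a WT peak and 5 a TRE-Msi2 peak. Of the 34 remaining complex I genes, 8 (23.5%) and 14 (41.2%) did, and of the 8 assembly factors 1 and 2. The interval for the core, 18.4% to 90.1% in WT, overlaps that of the remaining genes, 10.8% to 41.2%. Both hold the 20.3% of all genes.

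Ndufs1, the largest iron-sulphur subunit, on chromosome 1, held 3 peaks in each list at overlapping places, all also inside the span of the noncoding RNA gene Ino80dos. From the end of the gene inward their scores were 31, 27 and 21 in WT and 38, 35 and 23 in TRE-Msi2. Ndufs3, a subunit of the quinone-binding module, held 1 peak at the end of the span, with 31 in WT and 44 in TRE-Msi2. Its WT score was above 91.0% of all WT peaks, and its TRE-Msi2 score was above 94.7% of all TRE-Msi2 peaks. Ndufv2, a subunit of the NADH-binding module, held 2 peaks in each list in the middle of its span, at 0.615 and 0.536 of the way along, with 16 and 31 in WT and 32 and 47 in TRE-Msi2. Ndufs7, which carries an iron-sulphur cluster, held a TRE-Msi2 peak alone, with a score of 23.

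Among the accessory genes Ndufab1, the mitochondrial acyl carrier protein, had the highest TRE-Msi2 score, 48 (Poisson interval 35.4 to 63.6), where the WT list had 26 (17 to 38.1) in the same bin. Ndufa6 had 21 in WT and 45 in TRE-Msi2. Ndufa4, which is known to be a subunit of complex IV in spite of its name, held 2 WT peaks of 19 each, close to either end of the gene, and 3 TRE-Msi2 peaks of 35, 22 and 32. Its relative Ndufa4l2 held none. Ndufa10 had its peaks near the start instead, at 0.111 and 0.0845 of a 34.3 kb span, with 18 and 28 in WT and 18 and 34 in TRE-Msi2.

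The 8 complex I genes with a TRE-Msi2 peak alone scored from 21 to 35. Ndufc1, a small membrane subunit, held peaks of 35 and 24. Ndufs4 had 25, Ndufa1, Ndufa7 and Ndufs7 had 23 each, Ndufaf4 and Ndufs6 had 22 each, and Ndufb9 had 21. The lowest single-bin score of the list was 20 and its median 24.7, so all of these but Ndufc1 and Ndufs4 lay below the median.

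Ndufaf7, a methyltransferase that acts during assembly of the complex, was counted in both lists through peaks on opposite strands. At chr17:78947261-78947460 the WT list held a peak of 31 reads on the minus strand and the TRE-Msi2 list 1 of 34 reads on the plus strand, which is the strand of the gene. The WT peak is therefore not evidence for the Ndufaf7 transcript. It was the only peak on the strand opposite to its member: over the 78 members whose strand was known, 58 of 59 WT peaks and 78 of 78 TRE-Msi2 peaks lay on the strand of the gene, where over all such genes 82.4% and 84.2% did.

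Complex II, succinate dehydrogenase, which also belongs to the citric acid cycle and is encoded in full by the nucleus, had peaks over all 4 genes in both lists. Sdha, the flavoprotein, held WT peaks of 17 and 45.7 at the end of its span, the second above 97.9% of WT peaks. In the TRE-Msi2 list a single peak of 800 nt stood there with a score of 31.3. The WT peak of 45.7 covered 400 nt. How joined bins were scored is unknown, so these scores cannot be compared. Sdhb, the iron-sulphur subunit, held 1 WT peak of 16 and 3 TRE-Msi2 peaks of 31, 26 and 20. Sdhc and Sdhd, the membrane anchors, held 1 peak each at the gene end, with 27 and 31 in WT and 30.8 and 44 in TRE-Msi2. Complex II peaks were wide: 1 of 5 WT peaks and 2 of 6 TRE-Msi2 peaks were a single bin, against 48 of 73 and 65 of 100 over all members.

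The promoters of the complex II genes Sdha and Sdhd are shown because they carry sequence elements shared by many members that the selection rule did not use. Each runs from 250 bases before to 50 bases after the start of the gene, 5′ to 3′ on the strand of the gene, from RefSeq on GRCm38.p6. Capitals mark matches to GCGCANGCG, a form of the site of the factor NRF1, or to CCGGAAG, a core of sites for ETS factors such as GABPA, on either strand. Sdha lies at chr13:74350191-74350490 and Sdhd at chr9:50603800-50604099, both on the minus strand.
Sdha: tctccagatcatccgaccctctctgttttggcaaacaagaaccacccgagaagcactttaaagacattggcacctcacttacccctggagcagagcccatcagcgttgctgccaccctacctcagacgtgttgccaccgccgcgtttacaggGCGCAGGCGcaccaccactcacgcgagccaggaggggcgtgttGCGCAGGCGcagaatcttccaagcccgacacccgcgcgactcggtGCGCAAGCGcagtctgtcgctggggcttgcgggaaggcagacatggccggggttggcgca
Sdhd: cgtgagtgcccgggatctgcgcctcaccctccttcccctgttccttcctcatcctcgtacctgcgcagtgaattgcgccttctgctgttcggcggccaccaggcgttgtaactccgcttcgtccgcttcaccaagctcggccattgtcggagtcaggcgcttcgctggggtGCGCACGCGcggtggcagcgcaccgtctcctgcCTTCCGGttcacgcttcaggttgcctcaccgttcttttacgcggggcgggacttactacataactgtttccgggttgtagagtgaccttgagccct

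The search was made on both strands in the windows of the 78 members that have one. The NRF1 letters were present in 22 of the 78 genes (28.2%) and in 9.63% of 17492 protein-coding genes. The ETS letters stood in 19 (24.4%) against 12.9%, and AAGATGGCG, a form of the YY1 site, in 8 (10.3%) against 2.14%. For NRF1 the shares were 11 of 45 members with a peak in either list (24.4%, interval 12.9% to 39.5%) and 11 of 33 without (33.3%, 18.0% to 51.8%). For ETS they were 14 of 45 (31.1%, 18.2% to 46.6%) and 5 of 33 (15.2%, 5.11% to 31.9%). The intervals overlap in both cases, and a match is a description of letters and not a bound site.

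In complex III, the cytochrome bc1 complex, 5 genes held peaks in both lists. Uqcrfs1, the Rieske iron-sulphur protein, held a single peak of 1000 nt at identical coordinates, chr13:30540332-30541331, with scores of 27.2 in WT and 41.8 in TRE-Msi2. Uqcrh, the hinge protein, scored 33 in WT at the gene end, and 50.5 in TRE-Msi2 with a second peak of 28.5 inside the gene; the peak at the end also touched a pseudogene. Uqcrq and Uqcrb, small subunits next to cytochrome b, scored 25 and 16 in WT and 50 and 36 in TRE-Msi2. Uqcr10 held a TRE-Msi2 peak alone, with 20, the lowest score of that list for a single bin, and Uqcrc1 and Uqcr11 held none.

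Uqcrc2, a core protein of complex III on chromosome 7, had the most TRE-Msi2 peaks of any member. In WT it held 2 peaks, 15 inside the gene and 25 at its end. In TRE-Msi2 it held 6, with 25, 30, 33.5 and 27 between 0.115 and 0.411 of the span, 26 at the inner WT place and 40.7 at the end. These first 4 had no WT partner. The end peak was the highest in both lists, but it also touches the span of the protein-coding gene Pdzd9. Its partner Uqcrc1, present in the complex in equal number, held no peak in either list.

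In complex IV, cytochrome c oxidase, peaks were found mainly over the general isoforms. Of 11 genes that are not restricted to a tissue, 9 held a WT peak (81.8%, interval 48.2% to 97.7%) and 10 a TRE-Msi2 peak. Of 7 isoforms known mainly from muscle, lung or testis (Cox4i2, Cox6a2, Cox6b2, Cox7a1, Cox7b2, Cox8b and Cox8c), 1 held a WT peak (14.3%, interval 0.361% to 57.9%) and 0 a TRE-Msi2 peak (upper limit 41.0%). The WT intervals overlap, the restricted isoforms are shorter (median span 1.5 kb against 6.27 kb), and the difference was not tested. In the Cox6a, Cox6b and Cox8 families the general isoform was the one with peaks: Cox6a1 (21.5 in TRE-Msi2 alone) and not Cox6a2, Cox6b1 (15 in WT, 27 and 20 in TRE-Msi2) and not Cox6b2, Cox8a (12.7 and 21) and not Cox8b or Cox8c. The exception was Cox7b2, a testis isoform, with 1 WT peak of 16 reads within a span of 105.4 kb, far from the gene end and without a TRE-Msi2 counterpart.

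Cox4i1, the general isoform of the regulatory subunit, at chr8:120668225-120674209, held no peak in either list, and neither did Cox4i2. It was the single general complex IV gene without one. No peaks in these lists does not show that MSI2 is absent from the transcript, since single bins were listed only from 15 and 20 reads upward.

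Cox5a, a subunit facing the matrix, held 3 peaks in each list, the innermost at 0.859 of its span. From the interior to the end they scored 20, 27 and 35 in WT and 39, 43 and 62 in TRE-Msi2, so the order was the same in both lists. The end peak, at chr9:57532194-57532393, was above 94.5% of WT and 98.8% of TRE-Msi2 peaks (Poisson intervals 24.4 to 48.7 and 47.5 to 79.5). Cox5b scored 24 and 23 in WT and 46 and 38 in TRE-Msi2. Cox6c, an accessory subunit of the membrane part, scored 34 and 21 in WT, and 37 and 43 in TRE-Msi2, where the peak at the end was joined over 2 bins and the inner peak was the higher.

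Cox7b had the highest listed WT score of all members, 58.5 for a joined peak of 400 nt near the gene end (chrX:106021662-106022061), above 99.2% of WT peaks. Its TRE-Msi2 score there was 52.7. Cox7a2 held 1 peak at its end, with 21 in WT and 45 in TRE-Msi2. All 3 of its further WT peaks and a 2400-nt TRE-Msi2 peak lay near the start of the span, where the gene Tmem30a overlaps on the same strand, so these cannot be given to Cox7a2. A last TRE-Msi2 peak, of 20 reads at 0.799 of the span, had no WT partner and also touched the pseudogene Gm51685. Cox7a2l, which takes part in joining complexes III and IV into supercomplexes, scored 17 in WT, and 24 and 28 in TRE-Msi2; Cox7a1 held none.

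Among the 78 members with a promoter window in RefSeq, Cox7c and Cox7b were those with a peak on the gene's own strand that reached the first bases of the gene, so their starts are printed here. For both genes the same bin was found in both lists. The Cox7c bin at chr13:86046596-86046795 scored 20 in WT and 27 in TRE-Msi2. For the Cox7b bin at chrX:106015662-106015861 the scores were 19 and 26. The windows run from 250 bases before to 50 after the start, 5′ to 3′ on the strand of the gene, from RefSeq on GRCm38.p6. Capitals mark the bases under the peak, which are the last 50 for Cox7c (chr13:86046746-86047045, minus strand) and the last 88 for Cox7b (chrX:106015450-106015749, plus strand).
Cox7c: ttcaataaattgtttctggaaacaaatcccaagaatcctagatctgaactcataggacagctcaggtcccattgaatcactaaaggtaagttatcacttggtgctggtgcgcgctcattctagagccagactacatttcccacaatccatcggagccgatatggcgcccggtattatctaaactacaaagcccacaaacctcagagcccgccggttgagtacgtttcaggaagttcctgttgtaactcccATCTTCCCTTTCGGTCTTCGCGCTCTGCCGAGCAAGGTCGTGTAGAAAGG
Cox7b: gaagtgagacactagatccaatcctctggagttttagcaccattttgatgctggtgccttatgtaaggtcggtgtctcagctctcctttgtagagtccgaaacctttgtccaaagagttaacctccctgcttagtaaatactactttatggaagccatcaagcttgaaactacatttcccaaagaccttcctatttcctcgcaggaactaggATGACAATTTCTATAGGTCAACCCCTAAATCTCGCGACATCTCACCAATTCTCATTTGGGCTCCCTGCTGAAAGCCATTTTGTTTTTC

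Bins are 200 nt wide, and the first of the marked Cox7b bases lie before the annotated start. The letters GTAG, a Musashi core motif written as DNA, occur once in the marked Cox7c bases and not in those of Cox7b, on the sense strand. In the 50 bases after the start they stood in 13 of the 78 members (16.7%) and in 12.9% of all protein-coding genes. Cox7c scored more at its other end, 28 in WT and 50 in TRE-Msi2, in a bin that also touches a small nucleolar RNA gene, and in a joined peak between them 14.3 and 24.7. The promoter of Ndufa7 was touched from the other side: a TRE-Msi2 peak of 24 reads on the minus strand lay over the upstream part of the window of this plus-strand gene.

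In complex V, ATP synthase, 11 of 17 genes held peaks in both lists. The 5 subunits of the F1 head and its stalk gave 3 in WT and 4 in TRE-Msi2. Atp5a1, the alpha subunit, held 1 peak of 600 nt at its end, with scores of 40 in WT and 64.3 in TRE-Msi2. The latter was the highest listed score of all members and above 99.0% of TRE-Msi2 peaks, though it belongs to a joined peak. Atp5e scored 19 and 29. Atp5c1 held a TRE-Msi2 peak alone (26), as did Atp5h (29), a subunit of the peripheral stalk. Atp5d, Atp5o, Atp5g1 and Atp5g2 held none.

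Atp5b, the catalytic beta subunit, on chromosome 10, held peaks from 0.146 of the span to its end. There were 5 in each list at corresponding places, with none between 0.401 and 0.824 of the span. From the start of the gene to its end the scores were 19.5, 14.7, 29, 20 and 28.5 in WT and 37, 35, 39, 32.5 and 50 in TRE-Msi2. The highest WT peak, a single bin of 29 (Poisson interval 19.42 to 41.65), lay at 0.39 of the span. It was close to the 28.5 of the joined peak at the end, so the order of these peaks is not settled. The highest TRE-Msi2 peak lay at 0.97.

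The second Atp5b peak, of 800 nt, covers the hairpin of the microRNA gene Mir677 (chr10:128085286-128085363, plus strand), and the first touches Snord59a, a small nucleolar RNA gene. The mature sequences of miR-677, from RefSeq on GRCm38.p6, are shown with the seed, bases 2 to 8, in capitals, because reads of the host transcript and of the small RNA cannot be told apart in these peaks.
mmu-miR-677-5p: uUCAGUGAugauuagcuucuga
mmu-miR-677-3p: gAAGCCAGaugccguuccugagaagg
Snord59a and Mir677 were the only small RNA genes of these types under an Atp5b peak, and the peak over Mir677 was the lowest of the 5 in WT, at 14.7.

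The genes Atp5g1, Atp5g2 and Atp5g3 encode the same mature subunit c of the membrane rotor and differ in their import sequences. Peaks were found over Atp5g3 alone. From the interior to the end it scored 20, 23 and 57.5 in WT and 31, 36.3 and 54.3 in TRE-Msi2, the end peak lying above 99.1% of WT and 98.1% of TRE-Msi2 peaks. Atp5pb, subunit b of the stalk, held 3 WT peaks of 31, 32 and 29 and 4 TRE-Msi2 peaks of 46.5, 45, 25.5 and 49.5, from the end inward. The small membrane subunit Atp5mpl had 30 in WT at its end and 56 in TRE-Msi2, with further TRE-Msi2 peaks of 24 and 31. Atp5l scored 23, and 45.5 and 21. Atp5j, Atp5k, Atp5md and Atp5j2 had top scores of 16 to 22 in WT and 26 to 33 in TRE-Msi2.

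**Figure D3:**
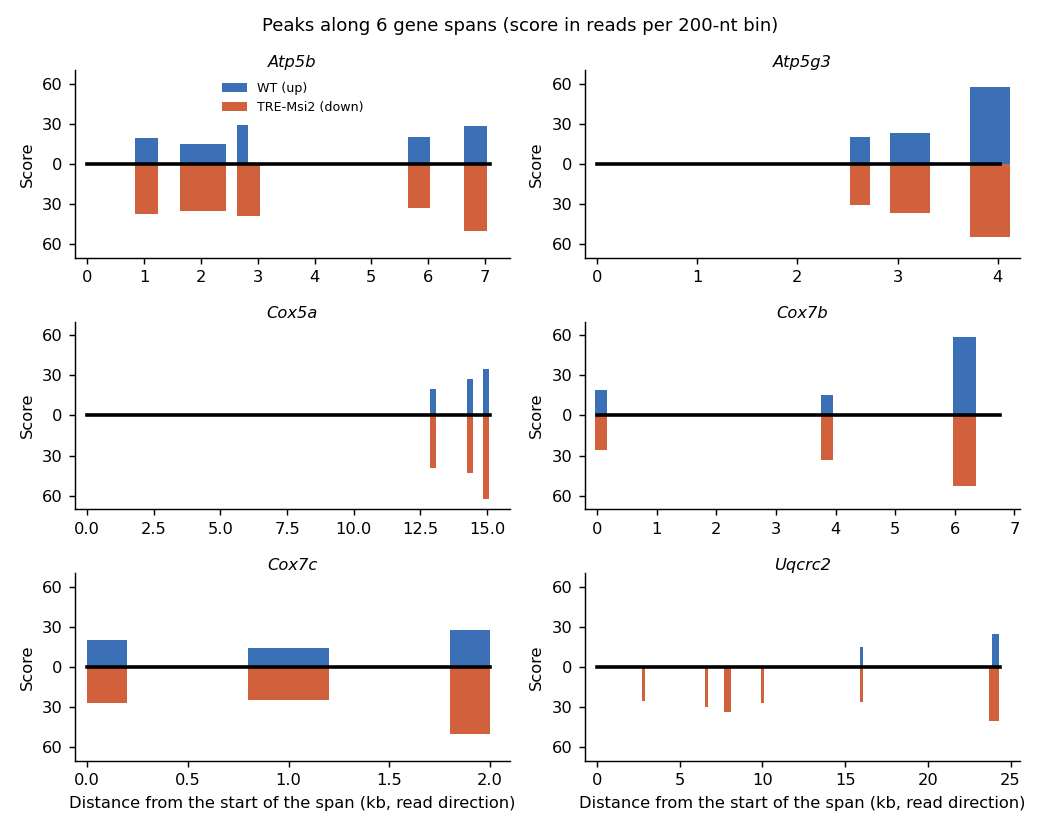
Peaks along the spans of Atp5b, Atp5g3, Cox5a, Cox7b, Cox7c and Uqcrc2; the x axis is the distance from the start of the span in the direction of the reads (kb), bar width is peak width, and bar height is the score in reads per 200-nt bin, WT upward (blue) and TRE-Msi2 downward (red). Places match between lists, except for 4 TRE-Msi2 peaks in the first part of Uqcrc2, and a peak stands near the end of each gene. The unit of the score holds for single bins, and for joined peaks it is unknown.

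In every complex most genes with a peak had one at the end of the span. Each span was followed along the strand of the peak. The last 10% of the span held the midpoints of 39 of 73 WT peaks (53.4%, interval 41.4% to 65.2%) and 51 of 100 TRE-Msi2 peaks (51.0%, 40.8% to 61.1%). Over all genes it held 47.4% and 42.8% of peaks, which lie inside these intervals. In spans under 20 kb the shares over all genes, 42.8% and 40.9%, lay just below the members' lower limits of 43.2% and 42.9%. By gene, 35 of the 43 members with a WT peak (81.4%) and 47 of the 54 with a TRE-Msi2 peak (87.0%) had a peak in the last 10%, against 63.1% of all genes with a peak in either list. Among genes with spans under 20 kb the shares by gene were 31 of 36 (86.1%) and 41 of 46 (89.1%) for members, and 57.8% and 59.0% for all genes. A peak on the strand opposite to its gene has its place reversed. Where the gene's strand was known, 82.4% of WT and 84.2% of TRE-Msi2 peaks over all genes lay on it. For members it was 98.3% and 100%. Members and all genes are therefore not measured alike, and shares without opposite-strand peaks are not given for all genes. The median distance from a member's peak to the end was 588.5 bases in WT and 712.5 in TRE-Msi2.

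All 11 and 13 genes of complex V with a peak had one in the last 10%, as did 9 of 10 and 10 of 10 in complex IV. Complex II gave 3 of 4 and 4 of 4, complex I 9 of 13 and 16 of 21, and complex III 3 of 5 and 4 of 6. Few peaks lay in the first 10% of the span, 6 in WT (8.22%) and 5 in TRE-Msi2 (5%). Over all genes 8.89% and 8.38% did, peaks on the strand opposite to the gene included. Those of members belonged to Ndufa10, Ndufa4, Ndufaf7 on the opposite strand, Cox7a2 where Tmem30a overlaps, Cox7b and Cox7c. Complexes II, III and V had 0 there in both lists.

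Where a member had several peaks, the one nearest the end was often the highest. This held in 12 of 19 such members in WT (63.2%) and 19 of 27 in TRE-Msi2 (70.4%), against 45.5% and 41.5% of all genes with several peaks. For spans under 20 kb it was 10 of 14 and 17 of 23 for members, against 54.8% and 50.1%. The shares over all genes again include peaks on the strand opposite to the gene. The members' shares rest on few genes, no intervals were computed for them, and the difference was not tested. The median score of member peaks was 23 in the last 10% and 20 elsewhere in WT, and 33 and 29 in TRE-Msi2. The gene table used gives no exons, so ends of spans cannot be divided into coding and noncoding parts.

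**Figure D4:**
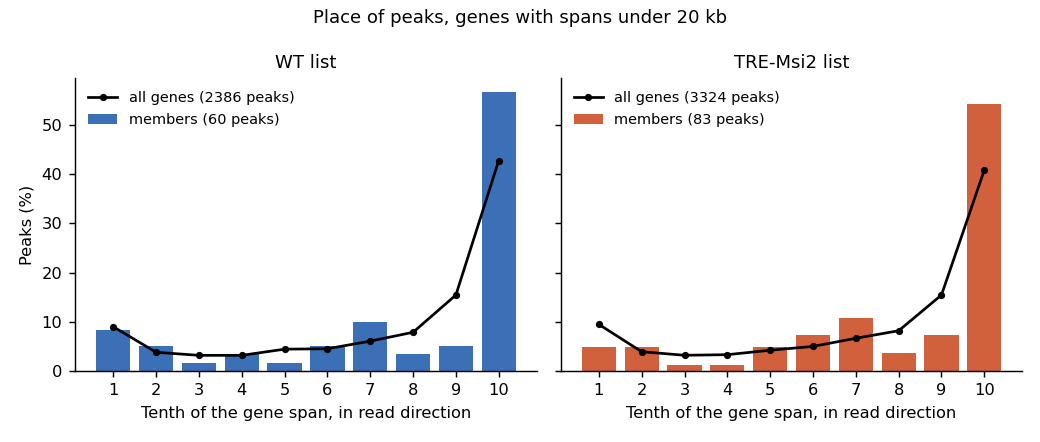
Share of peaks (y axis, percent) in each of 10 equal parts of the gene span, along the strand of the peak, for genes with spans under 20 kb; bars are members (60 WT peaks, 83 TRE-Msi2 peaks) and the black line all nuclear protein-coding genes. The last part holds 56.7% and 54.2% of members' peaks and 42.8% and 40.9% of all peaks. Peaks on the strand opposite to the gene, more frequent over all genes, are included with their place reversed.

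Nearly all WT sites in these genes were found again in the TRE-Msi2 list. Of 73 WT peaks 70 (95.9%) were overlapped by a TRE-Msi2 peak on the same strand, against 90.4% over all nuclear protein-coding genes. The 3 without were the outermost Sdha peak (17), the Cox7b2 peak (16) and the Ndufaf7 peak on the opposite strand (31). In the other direction 68 of 100 TRE-Msi2 peaks (68.0%, interval 57.9% to 77.0%) were overlapped, and this interval holds the 58.6% over all genes. The 32 TRE-Msi2 peaks without a WT partner had a median score of 24, and the 68 with one had 35; 13 of the 32 and 38 of the 68 lay in the last 10% of the span. By complex, the overlapped share of TRE-Msi2 peaks was 17 of 30 in I, 4 of 6 in II, 7 of 14 in III, 18 of 22 in IV and 22 of 28 in V.

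Scores at identical places allowed the complexes to be set beside each other. Single bins with whole-number scores at the same position and strand in both lists numbered 3796 in all, with a median ratio of TRE-Msi2 to WT score of 1.52, which includes the unknown difference in depth. The 37 such bins in members, from 27 genes, had a median ratio of 1.73 (lowest 1.10 in Ndufs1, highest 2.25 in Uqcrb), and 25 of 37 lay above the median of all bins, which by construction 50% of all bins do. Summed over bins the members had 820 reads in WT and 1370 in TRE-Msi2, a ratio of 1.67 with a counting interval of 1.53 to 1.82, where all bins had 1.5.

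Median ratios were highest in complexes III and IV. All 4 bins of complex III, from 3 genes, and 9 of 11 of complex IV were above the overall median, with median ratios of 1.97 and 1.80. In complex I 7 of 14 and in complex V 5 of 8 were above it, with medians of 1.60 and 1.54. Complex II had no such bin, because its shared peaks were wide. Single bins carry large counting error: the ratio of 2.00 in Uqcrq, 25 against 50 reads, has an interval of 1.21 to 3.37, and the summed intervals of complexes I (1.36 to 1.81), III (1.48 to 2.68), IV (1.54 to 2.11) and V (1.28 to 1.89) overlap. Those of I, III and V also hold the ratio of all bins, and 3 of the 4 complex III bins had WT scores of 15 or 16, where the TRE-Msi2 list begins at 20. The ratio also depends on the score itself. For bins with a WT score under 20, the medians were 1.82 in 14 member bins and 1.60 in all bins, for 20 to under 30 they were 1.57 in 18 and 1.42, and from 30 upward 1.52 in 5 and 1.31.

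Genes of the villus also had high ratios. In 15 villus enterocyte genes, a list added after the data had been seen, 55 of 64 bins were above the overall median with a median ratio of 1.85. In 14 crypt genes, likewise not a planned list, 4 of 10 were, with a median of 1.46. By the labels the tissue fractions differ too, crypts in WT and whole epithelium in TRE-Msi2, and their part in the members' ratio was not tested. The WT list nevertheless held peaks over all 15 villus genes, with a median top score of 57. It held them over 13 of the 14 crypt genes, with a median of 29. The villus genes are longer (median span 39.2 kb against 5.54 kb), and the purity of the WT fraction was not tested. Epithelial markers, which share Krt20 with the villus list, had a median of 1.90 over 17 bins, 16 of them above the overall median. Mitochondrial ribosomal proteins had 1.76 over 8, 6 of them above. The cytoplasmic ribosomal proteins had a median of 1.60 over 33 bins, the proteasome 1.49 over 12 and the citric acid cycle without complex II 1.73 over 14.

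**Figure D5:**
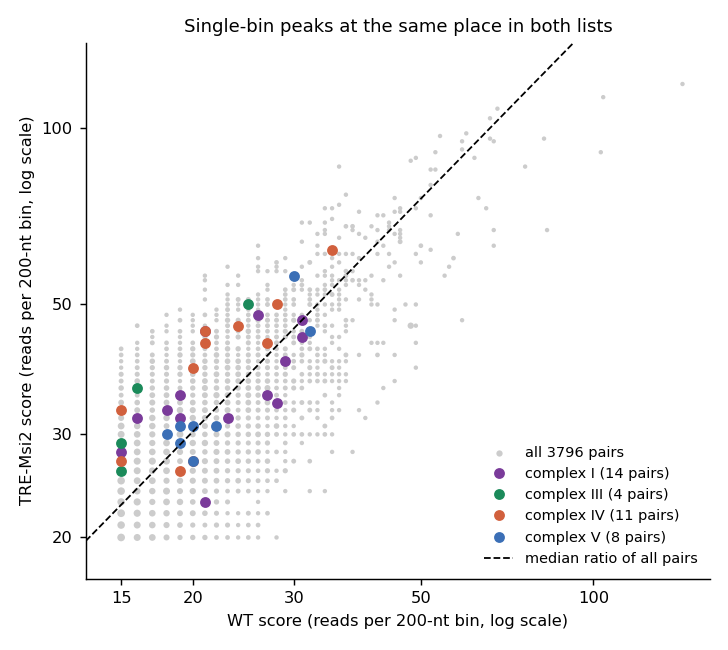
TRE-Msi2 score against WT score (both axes in reads per 200-nt bin, log scale) for 3796 single bins at the same place in both lists (grey, larger where bins coincide) with the members in colour by complex; the dashed line is the median ratio of all bins, 1.52. All 4 complex III bins and 9 of 11 complex IV bins lie above the line, complex I bins lie on both sides.

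Other genes of mitochondrial respiration were set beside the members. Cycs, the electron carrier cytochrome c, held 2 peaks in each list (top scores 20.6 and 30.9), and Cyc1 held none. Of 36 assembly factors outside the symbol rule 12 (33.3%) held a WT peak and 17 (47.2%) a TRE-Msi2 peak, led in TRE-Msi2 by Cox14 (48.5), which acts in translation of the mitochondrial Cox1 subunit, and Sco1 (36), a copper chaperone of complex IV. Of 14 citric acid cycle enzymes without complex II 10 and 13 did, led by Mdh2 (45.5 in WT and 72.5 in TRE-Msi2) and Ogdh (45 and 72). Of 11 regulators of mitochondrial genes 4 and 6 did; Nrf1 scored 20 and 34, and Ppargc1a 17 and 29 in a span of 662 kb.

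Mitochondrial ribosomal protein genes, of like span (median 7.69 kb), held peaks less often in WT, 15 of 78 (19.2%, interval 11.2% to 29.7%), near the 20.3% of all genes, and 32 of 78 in TRE-Msi2 (41.0%, 30.0% to 52.8%). Cytoplasmic ribosomal protein genes, with a shorter median span of 3.175 kb, gave 42 of 91 (46.2%) and 58 of 91 (63.7%). These shares are near those of all members, whose median span is 7.23 kb, but members under 5 kb gave 29.0% and 45.2%. Proteasome genes, with a longer median span of 11.9 kb, gave 12 of 40 (30.0%) and 21 of 40 (52.5%). On the mitochondrial genome, which encodes the remaining subunits of complexes I, III, IV and V, 7 WT and 6 TRE-Msi2 peaks, all on the plus strand, together touched all 13 protein genes, without regard to the strand of the gene. The widest of them covered 6400 nt in WT and 6600 nt in TRE-Msi2, so single genes cannot be told apart there.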

How the data were processed

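MSI2 CLIP-seq was measured in 4 libraries, 2 WT and 2 TRE-Msi2, crosslinked with 2 pulses of 265 nm light at 400 mJ/cm2, with the complex near 50 kD excised, per the labels' protocols. The submitters' processing notes name cutadapt, TopHat, mm9 and mm10, with tool settings not given in the sources used here. Names of the deposited lists describe peaks of the caller Piranha on merged libraries with duplicate reads removed. The authors' deposited score and p-value are joined in 1 cell; the score was used and the p-value was not.

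Peaks were assigned to RefSeq gene spans of GRCm38.p6 (mm10) by at least 1 base without regard to strand; strands of 78 members came from RefSeq promoter windows. A peak was placed by its midpoint. Shares carry exact Clopper-Pearson 95% intervals, single-bin scores exact Poisson intervals, and ratios of scores intervals from the exact binomial. Assignment and placement were tested on simulated peaks. Python 3.11.15, pandas 2.3.3 and scipy 1.17.1 were used. The genes named are the 10 members with the highest score and the 5 with the most peaks in each list, those with peaks in 1 list, paralog families and complex II; others were named after their values were seen. Members and lists were chosen with earlier results of these data known. Kinases named Rps6k were left out of the ribosomal proteins. Reads of members and their pseudogenes may be shared: of 19 pseudogenes with matching symbols 1 held a WT and 2 a TRE-Msi2 peak. Apart from RefSeq promoter windows and mature microRNAs, no genome sequence was used here, and no exon annotation. Values of 1 member are not reported here singly, though it stays in the counts.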

Additional observations from a re-analysis of the deposited data

How the results depend on the processing

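Each of 19 counts, shares and medians was recomputed on the higher-scoring 50% of each list, with at least 100 bases of a peak inside the span, with only peaks that touch a single gene span, without peaks on the strand opposite to the gene, without the assembly factors and, where they apply, with as many top-scoring TRE-Msi2 peaks as the WT list holds, with at least 100 shared bases and with the last 500 bases as the gene end. Of 110 alternative values 109 stayed within 1.5 times the main count or within its interval. All of these are values of members. Overlapping member peaks of the 2 lists share bin edges. The setting of at least 100 shared bases could therefore change nothing, and its 2 values are no check. The shares over all genes were not recomputed, so the comparisons with all genes were not checked in this way. On the higher-scoring 50% of each list, which holds fewer peaks by construction, 6 complex IV genes held a WT peak instead of 10. No paired analysis was possible because each deposited list pools both libraries of a genotype, and for the same reason no library could be left out in turn. The lists hold no bins below 15 (WT) and 20 (TRE-Msi2) reads apart from joined peaks, so weaker sites cannot be seen, and library depth is unknown.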
